A study of Mus musculus with 6 samples.

Results

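The 9 genes described here mark the distal nephron and the podocyte, and they were followed through RNA of mouse kidney cells sorted for the endothelial surface protein CD31. The members were taken by symbol and are Umod, Slc12a1, Slc12a3, Calb1, Aqp2, Aqp3, Atp6v1b1, Nphs1 and Podxl. All 9 were found among the 55487 genes of the deposited table, and all 9 had a mean of at least 1 FPKM over the 6 libraries, the filter for testing. FPKM scales fragments to exon length and to the fragments counted in a library, so it compares levels between genes of different length. The I-PpoI group was 3 mice with VE-cadherin Cre and a ROSA26-STOP-I-PpoI, ROSA27-STOP-I-PpoI or ROSA28-STOP-I-PpoI allele, as the labels of mice 1, 2 and 3 spell them. I-PpoI is a homing endonuclease that cuts DNA, and VE-cadherin (Cdh5) is an endothelial junction protein whose promoter directs the Cre to endothelium. The control group was 3 littermates labelled wild-type, and no group with Cre alone or with the allele alone was analysed here. All mice were on high-fat chow (60% of kcal as fat) over 4 weeks, begun at an age of 8 weeks. Whole kidneys were digested with collagenase and the cells were drawn out with CD31 magnetic beads.

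The nephron begins at the glomerulus, where podocytes wrap the capillaries and hold the filtration slit. The filtrate then runs through the proximal tubule, the thick ascending limb, the distal convoluted tubule and the collecting duct, each with its own salt and water transporters. These epithelial cells are not known for CD31, and their transcripts in a CD31-sorted preparation are commonly read as carry-over. Podxl, which encodes the sialomucin podocalyxin, is the exception, because vascular endothelium makes it as well as the podocyte.

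The libraries differed in depth and strand before any gene was compared. Fragments recovered from the FPKM values numbered 834149 to 13324303 in I-PpoI libraries and 14081222 to 16954480 in control libraries. Depth here means these totals of fragments assigned to genes, not the reads sequenced. Gene models annotated as antisense took 14.7% of the fragments of I-PpoI mouse 1 and 10.02% of those of I-PpoI mouse 2. The same models took 0.119% in the remaining I-PpoI library, while controls ranged over 0.197 to 0.225%. The sorted cell type was present in all 6, with Cdh5 at 65.0 to 199 FPKM in I-PpoI and 266 to 328 FPKM in control, and Pecam1, which encodes CD31, at 41.6 to 113 FPKM in I-PpoI and 197 to 256 FPKM in control. The endothelium list of 18 genes summed to 1042 to 2569 FPKM in I-PpoI and 3371 to 3723 FPKM in control. Mitochondrial genes took 6.42 to 48.2% of fragments in I-PpoI and 8.83 to 18.3% in control. The Y-linked Ddx3y had 20, 0 and 0 fragments in I-PpoI mice 1, 2 and 3 and 959 to 1672 in control. The X-inactivation transcript Xist had 0, 70 and 4739 in the same I-PpoI mice and 0 to 4 in control. I-PpoI mouse 1 thus held Ddx3y and no Xist, and I-PpoI mice 2 and 3 held Xist and no Ddx3y. So the groups also differed in sex-linked transcripts, and the I-PpoI group was mixed in them. The part of depth, strand, mitochondrial share and sex in the values that follow was not tested. In bulk RNA, fewer cells of a type and less RNA per cell cannot be told apart.

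Umod and Nphs1 each have an antisense model across their exons, and in I-PpoI mice 1 and 2 that model held more fragments than the member. Umod encodes uromodulin, the protein of urine casts secreted by the thick ascending limb, and lies on the minus strand of chromosome 7 (GRCm38, chr7:119462711-119479282). Across it on the plus strand lies Gm44588 (chr7:119462821-119472478), an antisense model that shares 539 exon bases with Umod, 98.9% of its own exons. Nphs1 encodes nephrin, the adhesion protein of the slit diaphragm, and lies on the plus strand (chr7:30458315-30487223). Nphs1os (chr7:30462164-30465591) runs across it on the minus strand and shares 597 exon bases, 44.6% of its own exons. Both antisense models were picked out after their values were seen. The longest stretch of coding exon shared by each pair is given here in part, because the same bases serve both genes and the strand alone says which one a fragment counts for. Sequences are from GENCODE M21 transcripts on GRCm38, written 5′ to 3′, each on its own gene's strand, and capitals mark the bases covered by exons of both genes. The first is from Umod exon 5 of 11 (chr7:119472389-119472508, minus strand) and the second is its Gm44588 counterpart (chr7:119472389-119472478, plus strand). The third is from Nphs1 exon 10 of 30 (chr7:30463553-30463656, plus strand) and the fourth its Nphs1os counterpart (chr7:30463553-30463642, minus strand). The capitals of each pair are reverse complements of each other.
Umod: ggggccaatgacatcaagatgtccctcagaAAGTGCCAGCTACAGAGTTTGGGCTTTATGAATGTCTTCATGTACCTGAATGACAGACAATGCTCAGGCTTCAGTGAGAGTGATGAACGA
Gm44588: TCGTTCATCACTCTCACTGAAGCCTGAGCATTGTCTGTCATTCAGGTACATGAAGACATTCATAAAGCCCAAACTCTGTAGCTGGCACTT
Nphs1: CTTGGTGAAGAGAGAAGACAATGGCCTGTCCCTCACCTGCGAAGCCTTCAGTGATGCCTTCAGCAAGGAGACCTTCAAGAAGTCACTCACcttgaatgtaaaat
Nphs1os: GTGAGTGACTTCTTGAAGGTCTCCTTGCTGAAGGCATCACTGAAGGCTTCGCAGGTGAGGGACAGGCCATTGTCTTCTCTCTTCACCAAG

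Gm44588 held 2103, 2139 and 47 fragments in I-PpoI mice 1, 2 and 3, against 67, 79 and 93 in control mice 1, 2 and 3. Umod itself held 128, 145 and 3573 fragments in the I-PpoI mice and 4114, 4792 and 6628 in the controls. In I-PpoI mice 1 and 2 the antisense model therefore took 16.4 and 14.8 fragments for each Umod fragment, while I-PpoI mouse 3 had 0.0132 and the controls had 0.0140 to 0.0165. The FPKM of Gm44588 was 2406 for I-PpoI mouse 1 and 4684 for I-PpoI mouse 2, rank 21 of the 14962 tested genes in each. It was 6.47 FPKM for I-PpoI mouse 3 and at most 10.3 FPKM for any control. Nphs1os held 692, 118 and 18 fragments in the I-PpoI mice and 133, 12 and 21 in the controls. That is 2.96, 3.28 and 0.0249 fragments for each Nphs1 fragment in the I-PpoI mice and 0.0220, 0.0139 and 0.0212 in the controls. The level of Nphs1os within the controls was highest in control mouse 1, as was that of Nphs1. No other member had an exon under an exon of the opposite strand. Slc12a1 has an antisense model, Gm14002, within its span that shares 0 exon bases with it, and that model held 0, 2 and 0 fragments in the I-PpoI mice and 0 in each control. Levels of all 9 members in I-PpoI mice 1 and 2, and so their fold changes, hold only the fragments assigned to the member's own strand. The strand difference of these 2 libraries was not confined to Umod and Nphs1, as the antisense shares above show. Mitochondrial genes on the minus strand held 68.2% of mitochondrial fragments for mouse 1 of the I-PpoI group and 70.6% for mouse 2. The same genes held 0.0821% for mouse 3 of that group and 0.0473 to 0.0664% for the controls.

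**Figure D1:**
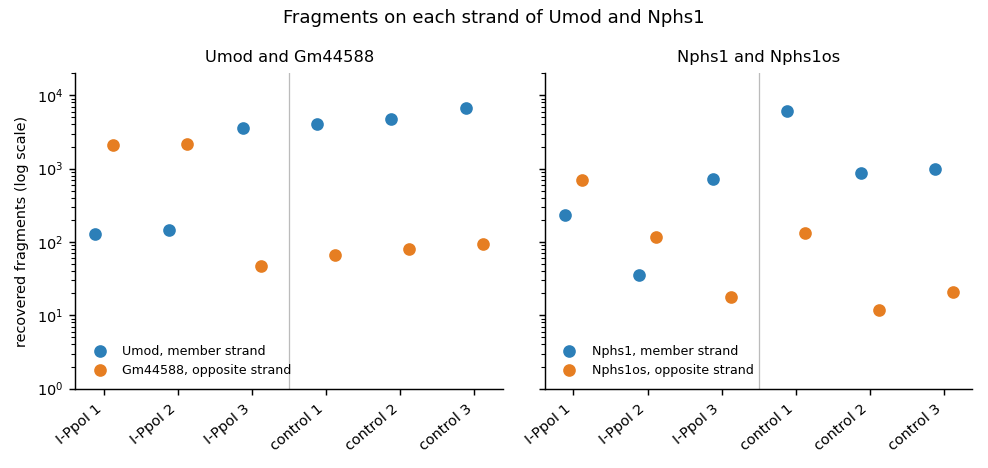
Recovered fragments (log axis) in each of the 6 libraries for Umod with its antisense model Gm44588, and for Nphs1 with Nphs1os. The antisense point lies above the member in I-PpoI mice 1 and 2 (2103 against 128 and 2139 against 145 for Gm44588 and Umod) and below it in I-PpoI mouse 3 and in every control.

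No member passed the test between the groups. On data simulated from the control means, with a spread common to all genes, this test recovered 9% of 2-fold and 80% of 4-fold changes. The simulation held no strand or cell type differences between libraries, so recovery in the real libraries was not measured. A lack of calls does not show that a member was unchanged. The fold change of every member was below 0 as deposited, and after scaling 6 were below 0 while Aqp2, Atp6v1b1 and Nphs1 were above it. Of all tested genes, 71.6% were below 0 as deposited and 50.7% after scaling. The counts below 0 given for the gene lists further on stand beside these same shares. Limma on log2(FPKM + 1), with Benjamini-Hochberg adjustment over all 14962 tested genes, called 0 of the 9 members and 0% of all tested genes. Over all genes, 633 were higher and 4824 lower at unadjusted p under 0.05, against 792 higher and 487 lower after median-of-ratios scaling, which also called 0. The median log2 fold change was -1.05 over the members and -0.65 over all tested genes, on the log2(FPKM + 1) scale, which understates changes of low genes. Median-of-ratios scaling sets the typical gene equal between libraries, and with it the medians were -0.39 over the members and -0.01 over all tested genes. At unadjusted p under 0.05, 2 members were lower, Slc12a3 and Podxl, beside 32.2% of all tested genes, and 0 were higher, beside 4.23%. Leaving out I-PpoI mouse 3 keeps the 2 I-PpoI libraries of fewest recovered fragments and of high antisense shares. Strand and group cannot be told apart in that fit, in which limma called 4 members at adjusted p under 0.05. These were Umod, Slc12a1, Calb1 and Podxl, all lower, beside 56.4% of all tested genes. Array weights called 5 beside 45.1%, and a common total per library called 5 beside 26.5%. As deposited, 4 of 9 members had all I-PpoI values below all control values, beside 45.1% of all tested genes, and 0 had all values above, beside 2.24%. After scaling 1 of 9 did, Podxl, beside 10.7% of all tested genes, and 0 lay above, beside 7.24%.

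The thick ascending limb members were among the more abundant. Umod had 28.9, 62.6 and 97.0 FPKM in I-PpoI mice 1, 2 and 3, against 92.2, 123 and 142 FPKM in control mice 1, 2 and 3. I-PpoI mouse 3 lay above the lowest control, so the groups overlapped, and the lowest value was the one of I-PpoI mouse 1 (95% exact Poisson interval 24.1 to 34.3 FPKM). The log2 fold change of Umod was -1.05 (SE 0.50, limma adjusted p = 0.147) as deposited and -0.24 (SE 0.55, limma adjusted p = 0.799) scaled. Slc12a1, the sodium-potassium-chloride cotransporter that loop diuretics block (chr2:125152505-125230002, plus strand), had 7.57, 4.76 and 19.9 FPKM in the I-PpoI mice and 20.6, 22.3 and 23.9 FPKM in the controls. Its controls lay close together, I-PpoI mouse 3 sat just below them, and I-PpoI mouse 2 rested on 23 fragments. The fold change of Slc12a1 was -1.20 (SE 0.51, limma adjusted p = 0.135) as deposited and -0.45 (SE 0.46, limma adjusted p = 0.564) scaled. Umod FPKM divided by Slc12a1 FPKM gave 3.81, 13.1 and 4.86 in the I-PpoI mice and 4.47, 5.53 and 5.91 in the controls, so only I-PpoI mouse 2 lay far from the rest.

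Of 12 further thick ascending limb genes, 10 passed the filter, 0 passed the test, and all 10 fold changes were below 0 as deposited (median -0.55), against 5 of 10 scaled (median 0.00). The list summed to 39.1, 46.4 and 52.6 FPKM in the I-PpoI mice and to 69.5, 63.2 and 72.96 FPKM in the controls, with Cldn14 listed at 0 in every library. Egf, whose precursor is made in large amounts by distal tubule cells, averaged 12.9 ± 4.42 FPKM in I-PpoI and 18.9 ± 3.48 FPKM in control (SD, n = 3 each). Ppp1r1b, a phosphatase inhibitor, averaged 6.47 ± 2.19 FPKM in I-PpoI and 6.98 ± 2.18 FPKM in control. An exon of a gene on the other strand lies across 4 of the 12 list genes, Egf and Ppp1r1b among them.

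The distal convoluted tubule members were low. Slc12a3, the thiazide-sensitive sodium-chloride cotransporter (chr8:94329201-94366214, plus strand), had 5.83, 2.68 and 2.99 FPKM in the I-PpoI mice and 18.2, 5.60 and 8.83 FPKM in the controls. Control mouse 1 stood above the other controls, and I-PpoI mouse 1 lay above the lowest control. Its fold change was -1.21 (SE 0.50, limma adjusted p = 0.135) as deposited and -0.52 (SE 0.44, limma adjusted p = 0.493) scaled. Calb1, which encodes calbindin-D28k, a calcium buffer of the distal convoluted and connecting tubule (chr4:15881264-15908064, plus strand), had 1.29, 1.48 and 4.24 FPKM in the I-PpoI mice and 6.09, 4.08 and 5.65 FPKM in the controls. The first 2 of these rested on 10 and 6 fragments, with 95% exact Poisson intervals of 0.617 to 2.37 and 0.542 to 3.22 FPKM, and I-PpoI mouse 3 lay among the controls. Its fold change was -1.004 (SE 0.42, limma adjusted p = 0.135) as deposited and -0.39 (SE 0.40, limma adjusted p = 0.561) scaled. Slc12a3 divided by Calb1 was 4.53, 1.82 and 0.705 in the I-PpoI mice and 2.98, 1.37 and 1.56 in the controls, so the I-PpoI ratios lay on both sides of the controls.

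Of 12 further distal convoluted tubule genes, 10 passed the filter and 0 passed the test. All 10 were below 0 as deposited (median -0.45) and 4 of 10 scaled (median 0.09). The list summed to 24.1, 43.2 and 64.4 FPKM in the I-PpoI mice and to 87.1, 52.7 and 64.7 FPKM in the controls. S100g, an intestinal and renal calcium-binding protein, averaged 12.8 ± 7.37 FPKM in I-PpoI and 28.5 ± 11.0 FPKM in control. Wnk4, a kinase that controls the thiazide-sensitive cotransporter, averaged 6.37 ± 0.989 FPKM in I-PpoI and 6.67 ± 1.87 FPKM in control (SD, n = 3 each), and an exon of a gene on the other strand lies across it. Kcnj16, a basolateral potassium channel subunit, had 1.43, 3.94 and 12.8 FPKM in the I-PpoI mice, on both sides of the controls at 6.04, 5.58 and 6.18 FPKM.

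Among collecting duct members the vasopressin-regulated water channel Aqp2 was the abundant one. Aqp2 (chr15:99579055-99584547, plus strand) had 65.0, 58.9 and 29.98 FPKM in the I-PpoI mice and 50.9, 96.0 and 60.8 FPKM in the controls. The groups interleaved, and I-PpoI mouse 3, the I-PpoI library of most recovered fragments, was the lowest of all 6. Its fold change was -0.45 (SE 0.44, limma adjusted p = 0.412) as deposited and 0.35 (SE 0.48, limma adjusted p = 0.665) scaled, so its direction turned with the scaling. Aqp3, the basolateral water and glycerol channel of the same principal cells (chr4:41092722-41098183, minus strand), had 6.48, 1.31 and 4.47 FPKM in the I-PpoI mice and 12.5, 6.53 and 11.7 FPKM in the controls. The value of I-PpoI mouse 2 was 2 fragments (95% exact Poisson interval 0.158 to 4.71 FPKM), and the highest I-PpoI value lay just under the lowest control. The fold change of Aqp3 was -1.26 (SE 0.53, limma adjusted p = 0.135) as deposited and -0.60 (SE 0.46, limma adjusted p = 0.467) scaled. Aqp2 divided by Aqp3 was 10.04, 45.1 and 6.70 in the I-PpoI mice and 4.09, 14.7 and 5.18 in the controls, and the groups overlapped. Atp6v1b1, a proton pump subunit of acid- and base-secreting intercalated cells (chr6:83742990-83758855, plus strand), had 3.70, 2.18 and 3.36 FPKM in the I-PpoI mice and 5.31, 4.10 and 6.63 FPKM in the controls. All I-PpoI values lay below the controls, with 26, 8 and 196 fragments behind them, and the fold change was -0.64 (SE 0.33, limma adjusted p = 0.167). Scaled, it was 0.00 (SE 0.27, limma adjusted p = 0.993), and the groups overlapped.

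Of 12 other principal cell genes 10 passed the filter, 0 passed the test and 9 were below 0 as deposited (median -0.71), against 6 scaled (median -0.15). Their sums were 87.3, 49.97 and 81.3 FPKM in the I-PpoI mice and 188, 99.997 and 164 FPKM in the controls. Npnt, an integrin ligand of the basement membrane, averaged 32.4 ± 15.6 FPKM in I-PpoI and 82.997 ± 30.1 FPKM in control. Hsd11b2, which inactivates glucocorticoid in aldosterone target cells, averaged 8.76 ± 6.98 FPKM in I-PpoI and 23.2 ± 8.98 FPKM in control. Gata3, a transcription factor of the collecting duct and also of mesangial cells, averaged 10.4 ± 5.10 FPKM in I-PpoI and 15.4 ± 5.85 FPKM in control (SD, n = 3 each). An exon of a gene on the other strand lies across Gata3. Of 14 intercalated cell genes 10 passed the filter, 0 passed the test and 8 were below 0 as deposited (median -1.14) and also scaled (median -0.47). Their sums were 46.7, 42.4 and 29.9 FPKM in the I-PpoI mice and 61.7, 54.2 and 87.9 FPKM in the controls. Aqp6, an intracellular anion-conducting aquaporin, had 3.86, 2.96 and 8.58 FPKM in the I-PpoI mice and 15.5, 16.4 and 36.7 FPKM in the controls, and Rhcg, an ammonia channel, averaged 4.53 ± 1.21 FPKM in I-PpoI and 11.5 ± 2.51 FPKM in control. Atp6v0a4, a further proton pump subunit, had 19.2, 22.8 and 4.30 FPKM in the I-PpoI mice and 3.796, 3.63 and 3.54 FPKM in the controls. An exon of the opposite-strand gene Tmem213 lies across 62 exon bases of Atp6v0a4, and the 2 high values belong to the libraries with high antisense shares. These 2 values are part of the intercalated cell sums of 46.7 and 42.4 FPKM. Exons of the other strand lie across 2 of the 14 intercalated cell genes, the same 2 that were above 0 as deposited. They lie across 3 of the 12 principal cell genes, among them the 1 above 0 as deposited.

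**Figure D2:**
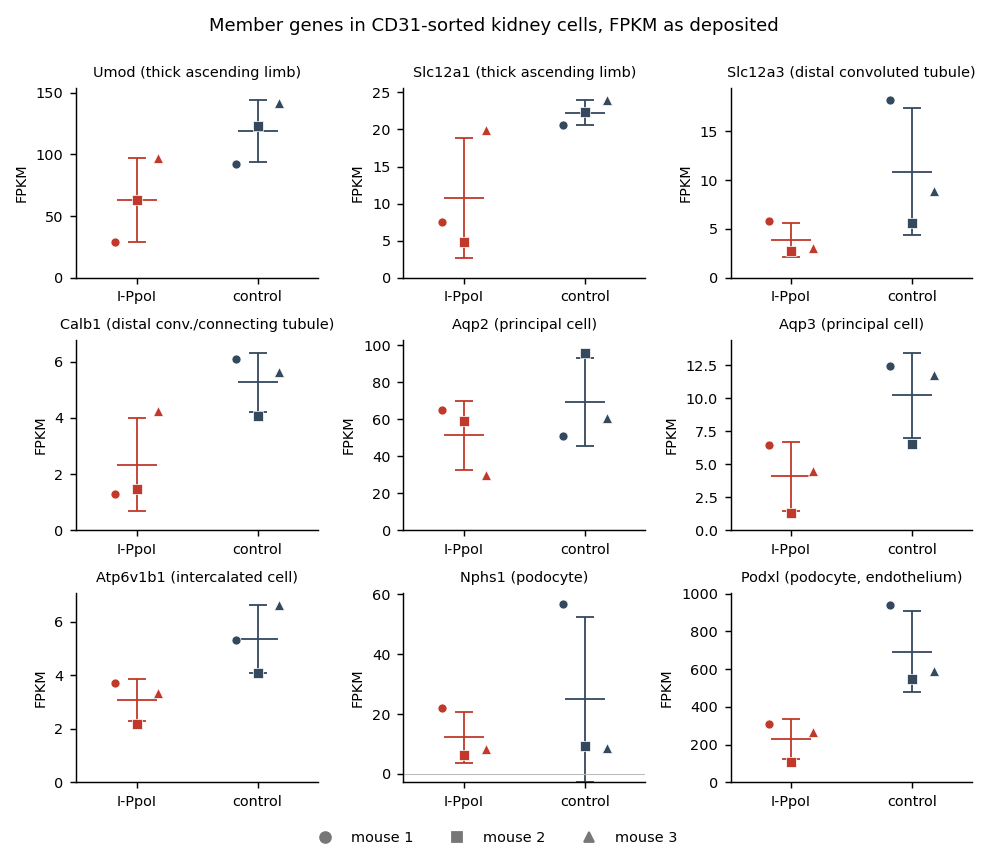
FPKM as deposited for each member, with I-PpoI left and control right in each panel, 1 symbol per mouse number, and mean and SD as line and whiskers (n = 3 each). Nphs1 shows 1 control far above the others, at 56.6 FPKM, and Podxl shows groups apart, with I-PpoI at 109 to 311 FPKM and control at 549 to 940 FPKM.

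Nphs1 had 22.04, 6.49 and 8.21 FPKM in the I-PpoI mice and 56.6, 9.25 and 8.81 FPKM in the controls. In both groups mouse 1 was highest, and the spread among the controls exceeded the difference between the groups. Its fold change was -0.62 (SE 0.82, limma adjusted p = 0.538) as deposited, 0.13 (SE 0.76, limma adjusted p = 0.926) scaled, and 0.22 as deposited without control mouse 1, so 1 library set its direction. Podxl (chr6:31519488-31563981, minus strand) had 311, 109 and 265 FPKM in the I-PpoI mice and 940, 549 and 590 FPKM in the controls. Every I-PpoI value was below every control as deposited and also scaled, where it had scaled FPKM of 362, 180 and 321 in the I-PpoI mice and 659, 424 and 466 in the controls. Its fold change was -1.69 (SE 0.50, limma adjusted p = 0.132) as deposited and -0.88 (SE 0.38, limma adjusted p = 0.312) scaled.

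The other podocyte genes were also highest in control mouse 1. All 18 on the list passed the filter and 0 passed the test. As deposited 18 were below 0 (median -0.79), beside 71.6% of all tested genes, and scaled 10 were (median -0.12), beside 50.7%. All 18 had their highest value of the 6 libraries there. The list summed to 285, 133 and 163 FPKM in the I-PpoI mice and to 804, 253 and 244 FPKM in the controls. Synpo, an actin-binding protein of podocyte foot processes, averaged 29.7 ± 11.3 FPKM in I-PpoI and 82.0 ± 37.2 FPKM in control, and the cell cycle inhibitor Cdkn1c averaged 42.1 ± 28.3 FPKM in I-PpoI and 78.4 ± 58.2 FPKM in control (SD, n = 3 each). An exon of a gene on the other strand lies across Cdkn1c. Podxl stood 14.1, 16.8 and 32.3 times above Nphs1 in the I-PpoI mice and 16.6, 59.3 and 67.0 times above it in the controls, so this ratio varied within each group.

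Podxl divided by Cdh5 was 1.56, 1.67 and 1.78 in the I-PpoI mice and 2.87, 2.06 and 1.81 in the controls, and Podxl divided by Pecam1 was 2.75, 2.61 and 2.54 in the I-PpoI mice and 3.68, 2.79 and 2.49 in the controls. Nphs1 divided by Cdh5 ranged from 0.0550 to 0.111 in the I-PpoI mice and from 0.0270 to 0.173 in the controls. Podxl stood above Cdh5 and Nphs1 below it in every library. The share of Podxl from podocytes and from endothelium was not measured. Glomerular endothelium, judged by a list of 6 genes, had 0 past the test and 6 below 0 as deposited (median -1.15), with 4 below 0 scaled (median -0.36). Ehd3, which marks glomerular capillaries, had 124, 27.7 and 133 FPKM in the I-PpoI mice and 215, 214 and 221 FPKM in the controls.

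A ratio within a library depends little on how that library was scaled, so each member was also set against the mean of Cdh5 and Pecam1 on the log2(FPKM + 1) scale. By this ratio 8 of 9 members were higher in I-PpoI on average and Podxl was lower. The smallest difference of the 8, 0.14 for Aqp3, exceeded that of 16.9% of all tested genes, so most tested genes were higher as well. The median difference was 0.35 over the members and 0.76 over all tested genes. The added 1 lifts low members most, and more so in libraries of low FPKM. The signs of the low members can therefore depend on it, and the count of 8 was not repeated with other pseudocounts. Atp6v1b1 had a log2 ratio of -5.01, -4.06 and -4.85 in the I-PpoI mice and -5.52, -5.49 and -5.19 in the controls. All 3 I-PpoI values were higher, a difference of 0.76, as was true of 39.9% of all tested genes. Podxl had a log2 ratio of 1.05, 1.05 and 1.08 in the I-PpoI mice and 1.70, 1.26 and 1.08 in the controls, a difference of -0.29. Its groups did not overlap, with I-PpoI lower, as for 0.267% of all tested genes, and control mouse 3 lay nearest, at 1.08 as I-PpoI mouse 3. Counted in either direction, 2 of 9 members did not overlap, beside 40.2% of all tested genes. The Podxl groups overlapped with Pecam1 alone, with the whole endothelium list or with a pseudocount of 0.1. The exact two-sided permutation p was 0.10 for Atp6v1b1 and for Podxl, the smallest that 3 against 3 allows, and 0.20 to 0.80 for the other 7. Umod had a log2 ratio of -2.34, 0.26 and -0.36 in the I-PpoI mice and -1.64, -0.89 and -0.97 in the controls, and Aqp3 stayed between -4.93 and -4.34 in all 6 libraries.

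**Figure D3:**
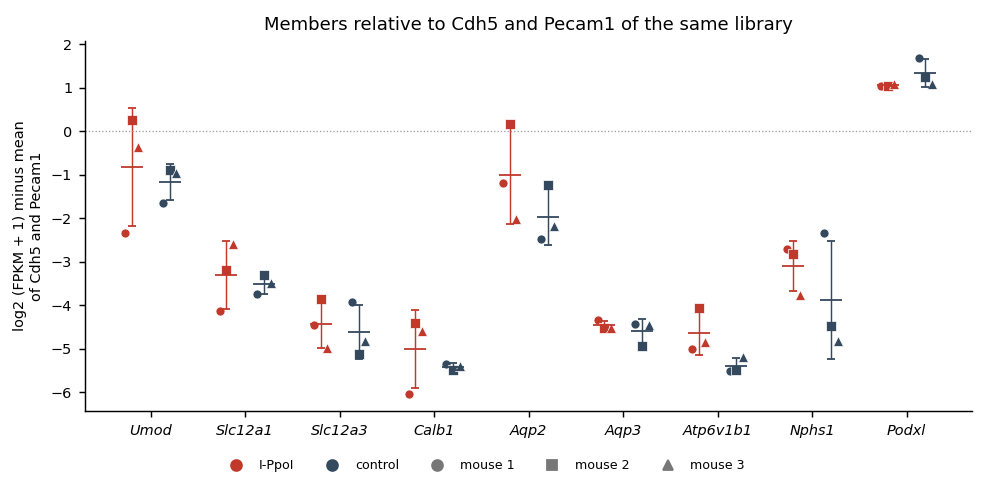
Each member on the log2(FPKM + 1) scale minus the mean of Cdh5 and Pecam1 in the same library, with I-PpoI left of control, 1 symbol per mouse, and mean and SD (n = 3 each). Podxl alone lies above 0 in all 6 libraries, and its I-PpoI points lie between 1.05 and 1.08.

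Among the 6 libraries the proximal tubule median was highest in I-PpoI mice 2 and 3, as deposited and scaled. These were also the libraries with the highest mitochondrial shares, 38.2% and 48.2%, while I-PpoI mouse 1 had 6.42% and the highest control 18.3%. They were the libraries of highest Xist as well, at 70 and 4739 fragments, while I-PpoI mouse 1 had 0 and the highest control 4. The part of these differences in the proximal tubule values was not tested. Of 18 proximal tubule genes 14 were above 0 as deposited (median 0.48) and 15 scaled (median 1.21), with 0 past the test. After scaling, the proximal tubule median lay -0.76, 2.09 and 2.27 from the control mean in I-PpoI mice 1, 2 and 3. The thick ascending limb median lay at -0.19, 0.34 and 0.16 in the same libraries, the principal cell median at -0.26, -0.04 and -0.31, and the podocyte median at 0.00, -0.39 and -0.30. Slc12a1 divided by Lrp2, the endocytic receptor megalin of the proximal tubule, was 9.66, 0.333 and 0.300 in the I-PpoI mice and 8.85, 6.11 and 7.68 in the controls. I-PpoI mouse 1 stood with the controls, and I-PpoI mice 2 and 3 stood below all of them. Lrp2 was chosen for this ratio with its values known, and the difference between the lists was not tested. The general tubule epithelium list of 18 genes, 16 over the filter, had 0 past the test and 13 below 0 as deposited (median -0.43), against 4 scaled (median 0.29). Mal, a membrane raft protein of distal tubules, averaged 21.5 ± 16.4 FPKM in I-PpoI and 68.8 ± 5.72 FPKM in control. Epcam, an epithelial adhesion molecule, averaged 17.8 ± 7.25 FPKM in I-PpoI and 27.1 ± 9.21 FPKM in control. Cdh16, a kidney cadherin of all tubule segments, averaged 69.5 ± 52.0 FPKM in I-PpoI and 52.3 ± 10.1 FPKM in control (SD, n = 3 each).

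**Figure D4:**
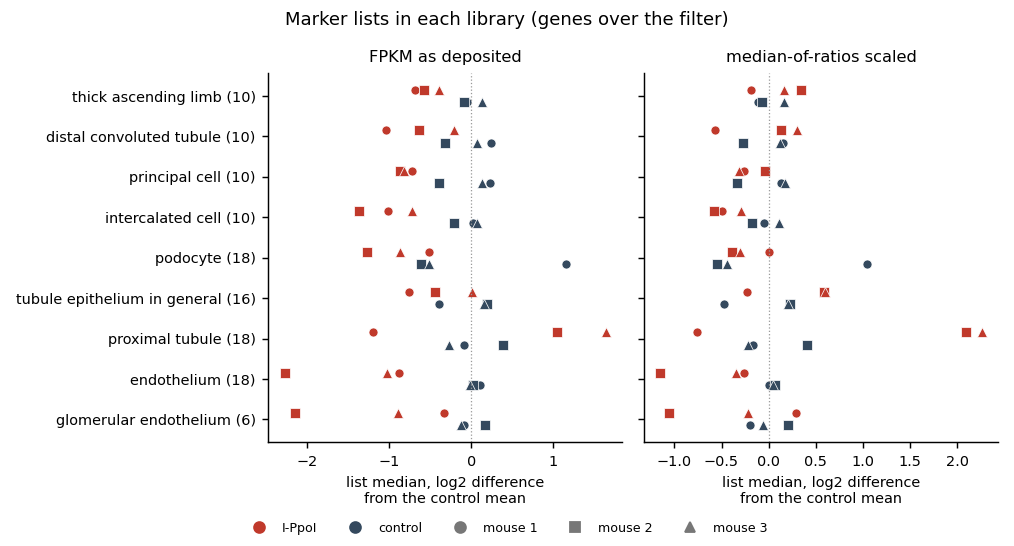
Median over each marker list of the log2(FPKM + 1) difference from the control mean, in each library, as deposited (left) and after median-of-ratios scaling (right), with I-PpoI above control and the number of genes over the filter in brackets. Control mouse 1 stands apart in the podocyte list (1.15 as deposited), and I-PpoI mice 2 and 3 in the proximal tubule list (1.05 and 1.65 as deposited).

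The order of levels was the same at its top in both groups. In I-PpoI the means ran Podxl (228 ± 106 FPKM), Umod (62.9 ± 34.1), Aqp2 (51.3 ± 18.7), Nphs1 (12.2 ± 8.52), Slc12a1 (10.8 ± 8.08), Aqp3 (4.08 ± 2.61), Slc12a3 (3.84 ± 1.74), Atp6v1b1 (3.08 ± 0.798) and Calb1 (2.34 ± 1.65 FPKM; SD, n = 3). In control they ran Podxl (693 ± 215 FPKM), Umod (119 ± 25.0), Aqp2 (69.2 ± 23.7), Nphs1 (24.9 ± 27.5), Slc12a1 (22.3 ± 1.66), Slc12a3 (10.9 ± 6.53), Aqp3 (10.2 ± 3.24), Atp6v1b1 (5.35 ± 1.26) and Calb1 (5.27 ± 1.06 FPKM; SD, n = 3). Podxl stood clear of Umod in both groups. Aqp2 stood clear of Nphs1 in I-PpoI, and Slc12a1 of Slc12a3 in control. All other neighbours in these orders had overlapping ranges.

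**Figure D5:**
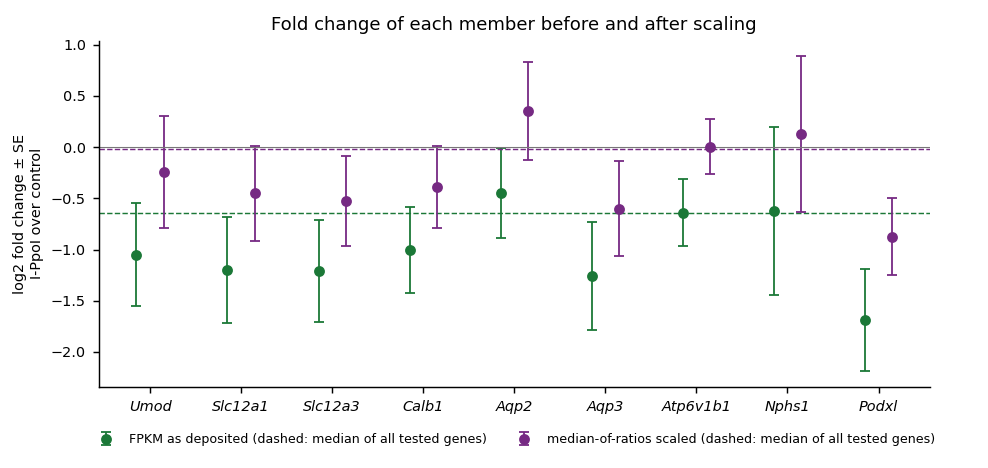
Log2 fold change of each member, I-PpoI over control, with its SE from limma, as deposited and after median-of-ratios scaling, with dashed lines at the median of all tested genes. As deposited every member is below 0, and scaled Aqp2 and Nphs1 are above it, at 0.35 and 0.13, with Atp6v1b1 at 0.00.

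The genes whose profiles lay nearest each member over the 6 libraries were found by the root mean square difference of centred log2(FPKM + 1) values among 11337 nuclear protein-coding genes. For Nphs1 they were the podocyte genes Lmx1b (0.22) and Rhpn1 (0.33), against a median of 1.02 over all these genes. For Podxl they were Ehd2 (0.13) and Rgs4 (0.15), for Umod Zc4h2 (0.15) and Muc1 (0.16), and for Slc12a1 Clp1 (0.09) and Uchl5 (0.10). Slc12a3 lay nearest to Eln (0.16) and Synpo (0.20), Aqp2 to Ier2 (0.08) and Rpl31 (0.12), and Aqp3 to Plcg2 (0.09) and Cmklr1 (0.10). Calb1 lay nearest to Ocrl (0.05) and Zfp760 (0.06), and Atp6v1b1 to Card6 (0.07) and Fkbp5 (0.08). Only for Nphs1 were both neighbours on the list of its own cell type. These distances are over 6 libraries that share the depth and strand differences given above.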

How the data were processed

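Total RNA of CD31-sorted kidney cells from 6 mice was read in paired-end mode (100 cycles), per the labels' protocols. The authors deposited FPKM per gene, normalized to counted fragments and exon length. DESeq2 and the builds mm10 and GRCm38 are named, per the submitters' processing notes. Which aligner, which counter and which strand option produced the table is not given in the sources used here. Of the gene IDs, 55227 of 55487 are in GENCODE M21 on GRCm38, and the members have the same coordinates in both.

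Multiplied by M21 exon length, 98.5 to 98.6% of FPKM values under 1000 fragments came out whole (tolerance 0.05). These fragments served for depth, strand and Poisson intervals, which cover counting error only, and for limma-voom as an alternative. Limma was fitted to log2(FPKM + 1) over genes averaging 1 FPKM or more, threshold 0.05, without a block. Labels describe separate mice in 1 batch, numbered 1 to 3 per group.

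The members, lists and tests were chosen with earlier results of these data known. Named genes are all members, those among the 3 of highest mean FPKM in each list that are printed, and the 2 genes of nearest profile to each member. Some genes that this rule takes are not reported here. Gm44588, Nphs1os, Gm14002, Tmem213, Cldn14, Lrp2, Ddx3y and Xist were named after their values were seen. Array weights were added as an alternative after the data were seen. The fit was tested on simulated data of 13178 genes with known changes, I-PpoI against control. It recovered 9% of 100 genes changed 2-fold and 80% of 100 genes changed 4-fold, and it called 13 unchanged genes. The simulated libraries were drawn from the control means with a common spread and without strand or cell type differences. These rates therefore need not hold for the real libraries. Even there changes near 2-fold were mostly missed, so a lack of calls does not show that a gene was unchanged. Fits used limma 3.58.1 under R 4.3.3. Tables and exact tests used scipy 1.17.1, pandas 2.3.3 and numpy 2.4.6 under python 3.11.15, and figures matplotlib 3.10.9.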

Additional observations from a re-analysis of the deposited data

Results flagged for a closer look

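The antisense model Gm44588, which lies across Umod and is no member, stood at 2406 FPKM in I-PpoI mouse 1 and at 4684 FPKM in I-PpoI mouse 2, above the highest control at 10.3 FPKM. The antisense model Nphs1os, across Nphs1, stood at 322 FPKM in I-PpoI mouse 1 and at 105 FPKM in I-PpoI mouse 2, above the highest control at 6.15 FPKM. Both models share exon bases with a member, so these values cannot be told apart from the strand difference of these 2 libraries. Whether they are transcripts of their own was not tested. In I-PpoI mouse 3, Gm44588 was at 6.47 FPKM, below every control, and Nphs1os was at 1.01 FPKM, within the range of the controls.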

How the results depend on the processing

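The count of 0 genes and 0 members past the threshold held with pseudocounts of 0.1 and 0.5, no filter, 5 FPKM, both median-of-ratios scalings, limma-voom, protein-coding genes, robust fits and I-PpoI mouse 3 alone against the controls, which is 1 library assumed to vary like the controls. It became 3961 genes (614 higher, 3347 lower) and 5 members with a common total per library, and 6747 genes (2785 higher, 3962 lower) and 5 members with array weights. With 1 library left out it was 0 to 8438 genes and 0 to 4 members, with calls in 1 case, without I-PpoI mouse 3 (Umod, Slc12a1, Calb1 and Podxl lower, beside 56.4% of all tested genes). The 2 I-PpoI libraries kept in that case were those of high antisense share, so strand and group cannot be told apart in it. The 2 members whose ratio to Cdh5 and Pecam1 did not overlap became 1, Atp6v1b1, with Pecam1 alone (beside 46.8% of all tested genes). The same member stayed with the endothelium list (44.7%) and with a pseudocount of 0.1 (26.8%). At 5 FPKM the 1 member was Podxl (35.0%). That filter left 7 members, without Atp6v1b1 and Calb1, for this ratio and for limma. With 1 library left out the count was 2 to 5, beside 41.0 to 66.0% of all tested genes. Both the 5 and the 66.0% were without I-PpoI mouse 1. Fold changes turned with median-of-ratios scaling over all genes for Aqp2 (0.35), Atp6v1b1 (0.0048) and Nphs1 (0.13). They turned with scaling over strand-clear genes, those with no gene on the other strand within 5 kb, for Umod (0.070), Aqp2 (0.67), Atp6v1b1 (0.26) and Nphs1 (0.42), and without control mouse 1 for Nphs1, whose range with 1 library left out was -1.11 to 0.22. The cause was not tested. Of 169 member fold changes under alternatives, 147 kept direction and side, 14 passed the threshold and 8 turned. The replicate block called 0 genes and 0 members. Same-numbered libraries correlated at 0.09, 0.06 and -0.02 in their deviations from group means, so the numbers were not taken as pairs. Fragment counts of 2 to 26 limit Aqp3, Calb1 and Atp6v1b1 in I-PpoI mice 1 and 2, and counts of 23 and 25 limit Slc12a1 and Slc12a3 in I-PpoI mouse 2.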

Other observations

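The control library with high podocyte genes also differed in other cell types. In control mouse 1 the median of the 12 mural, mesangial and fibroblast genes over the filter lay 0.60 above the control mean on the log2(FPKM + 1) scale, against -0.38 and -0.14 in control mice 2 and 3. The leukocyte median of 8 genes lay at -1.12 in control mouse 1 and at 0.18 and 0.83 in the other controls. The complement gene C1qa, a macrophage marker, was at 3.57 FPKM in control mouse 1 and at 60.7 and 61.9 FPKM in control mice 2 and 3. The part of cell recovery in these values was not tested.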
